A study of Mus musculus with 12 samples.

Results

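Expression of 6 genes was followed through mouse embryonic fibroblast (MEF) lines with and without mitochondrial DNA (mtDNA): osteocrin (*Ostn*), the natriuretic peptides *Nppb* and *Nppc*, and the natriuretic peptide receptors *Npr1*, *Npr2* and *Npr3*. They are 6 of the 24453 genes in the count table. The set was chosen from these same data, because *Ostn* had no count in the parental TM6 line and 215 counts or more in every library of the 3 lines derived from it. *Ostn* in TM6 against the derived lines is therefore given as a description, with no test.

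Natriuretic peptides bind 2 receptors that are themselves guanylyl cyclases and make the second messenger cyclic GMP (cGMP). NPR1 (guanylyl cyclase A) responds to the atrial and B-type peptides, encoded by *Nppa* and *Nppb*, and NPR2 (guanylyl cyclase B) responds to the C-type peptide, encoded by *Nppc*, which promotes growth of long bones. NPR3 has no cyclase domain and removes natriuretic peptides by uptake and breakdown. Osteocrin, also named musclin, is a secreted peptide known from bone-forming cells and skeletal muscle that binds NPR3 and competes with natriuretic peptides for this clearance.

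All 4 lines were C57BL6/J MEFs with the label genotype Pnpt1 neo-flox/neo-flox, and all were grown with 50 µg/mL uridine. TM6 is the untreated parental line, immortalized by SV40 large T antigen, whose floxed *Pnpt1* alleles (encoding polynucleotide phosphorylase, PNPase) were not recombined. The rho0 line was kept in 750 ng/mL ditercalinium dichloride dihydrochloride, a drug that depletes mtDNA, for 3 weeks and regrown from single cell colonies. PKO-1 and PKO-6 are PNPase knockout clones 1 and 6, obtained from TM6 with an adenovirus carrying Cre recombinase, which removes exon 2 of *Pnpt1*. The study reports that these clones, like rho0, had lost mtDNA and did not respire, so TM6 is the only line here with mtDNA. Each line had 3 replicate libraries, labelled as biological replicates of 1 line, so the tests measure the spread between cultures of that line and not between independently made lines. A difference between PKO-1 and PKO-6 is a difference between 2 clones of the same labels.

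Total expected counts were 47164860 to 67991378 per library. *Pnpt1* (chr11:29130751-29161828, plus strand, GRCm38) had 3131 ± 262 normalized counts in TM6, 5271 ± 230 in rho0, 1240 ± 44.3 in PKO-1 and 1944 ± 250 in PKO-6 (mean ± SD, n = 3 here and below), and its counts cover the whole gene, with the exons left after recombination. By this level no library went against its label, but reads of exon 2 alone or of mtDNA are not given here, so the labels were not checked further. Of 12 fibroblast markers 11 were tested, among them *Col1a1*, *Col1a2*, *Vim* and *Fn1* at 38369 normalized counts or more in every line mean. *Thy1* was at 2.82 or fewer in every line, and *Lum* (7.70, 0, 116 and 1.66), *Dcn* (25.3, 8.20, 183 and 147) and *Pdgfra* (342, 81.6, 3225 and 415 in TM6, rho0, PKO-1 and PKO-6) varied widely between lines. Against TM6, 8 of the 11 tested markers were called lower in rho0, 2 in PKO-1 and 6 in PKO-6, and 1, 6 and 3 higher. Of all tested genes, 21.4%, 17.9% and 19.4% were called lower and 20.7%, 16.4% and 21.9% higher in rho0, PKO-1 and PKO-6. RNA was extracted with either of 2 reagents, which the labels do not assign to libraries, and they give no batch. Within their lines, rho0 replicate 1 (chi-square per gene 63.1 and 83.1 against the other libraries, which differed by 4.53) and PKO-6 replicate 3 (77.7 and 132, beside 24.0) stood apart over all genes. Without rho0 replicate 1 the 21 tested log2 fold changes of the genes described here moved by at most 0.05 and 2 calls changed, and without PKO-6 replicate 3 they moved by at most 0.22 and 0 calls changed.

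The coding exon that holds the start of the *Ostn* peptide and the splice junction that separates the main *Npr3* transcripts are shown here as reference sequence, read from GENCODE M21 transcripts (GRCm38) at the positions of the transcripts in the files. *Ostn* (NM_198112.2, chr16:27307641-27351209, plus strand, 5 exons, 1268 bases) has its longest fully coding exon at chr16:27324523-27324731, exon 3. Its 71 bases in capitals follow a run of 4 codons for basic amino acids, where the precursor is known to be cut, and encode the start of the part that resembles natriuretic peptides.
Ostn exon 3: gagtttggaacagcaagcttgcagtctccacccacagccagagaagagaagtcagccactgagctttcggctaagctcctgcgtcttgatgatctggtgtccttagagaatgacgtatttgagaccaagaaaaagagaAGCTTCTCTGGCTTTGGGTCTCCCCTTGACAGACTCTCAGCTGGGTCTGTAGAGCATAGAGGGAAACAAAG
*Npr3* (chr15:11839896-11907371, minus strand) has 3 transcripts in the files. NM_008728.2 and NM_001039181.1 differ in the first 3 bases of exon 7, at chr15:11846298-11846385 and chr15:11846298-11846382. These bases are in capitals below, between 12 bases of exon sequence on either side.
Npr3 NM_008728.2: cttgcaaatcatCAGgtggcctagaag
Npr3 NM_001039181.1: cttgcaaatcatgtggcctagaag

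*Ostn* was at 0 in TM6 and ranked PKO-6, rho0, PKO-1 among the derived lines. Its expected counts were 0 in all 3 TM6 libraries. They were 1120, 935 and 953 in rho0. They were 222, 240 and 215 in PKO-1, and 1912, 1188 and 1672 in PKO-6. No library of a derived line came near 0, and the 3 derived lines did not overlap. Scaled for library size, *Ostn* had 1085, 1036 and 1064 normalized counts in rho0 (1062 ± 24.5). PKO-1 had 264, 256 and 222 (247 ± 22.1), and PKO-6 had 1566, 1231 and 1621 (1473 ± 211). PKO-6 was thus the highest and the most variable line. A floor of 3 counts in each TM6 library is 2.82 normalized counts on average. Against this floor the line mean of *Ostn* was at least 377-fold higher in rho0, at least 87.8-fold in PKO-1 and at least 523-fold in PKO-6. These folds leave out the spread between the libraries of a derived line. A count of 0 allows up to 0.0451, 0.0495 and 0.0529 CPM (counts scaled by library size) in the TM6 libraries, and these limits cover counting error only.

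Among the derived lines, which the choice of genes did not compare, the *Ostn* levels were read from an edgeR quasi-likelihood fit of 14026 genes. A gene was called where its adjusted p was below 0.01 and its log2 fold change above 0.5 in size. *Ostn* was 4.29-fold lower in PKO-1 than in rho0 (log2 fold change -2.10, SE 0.114, edgeR adjusted p = 2.05e-08). Against PKO-6, the PKO-1 level was 5.96-fold lower (log2 fold change -2.58, SE 0.115, edgeR adjusted p = 3.17e-09). Between PKO-6 and rho0 the log2 fold change was 0.47 (SE 0.104, 95% interval 0.27 to 0.68, edgeR adjusted p = 0.00249), which stayed under the fold threshold and was not called. Without PKO-6 replicate 2, the lowest of its 3 libraries, this log2 fold change was 0.57 and was called. With both clones pooled as 1 knockout group, PKO against rho0 had a log2 fold change of -0.30 (edgeR adjusted p = 0.759), since the clones lie on either side of rho0.

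**Figure D1:**
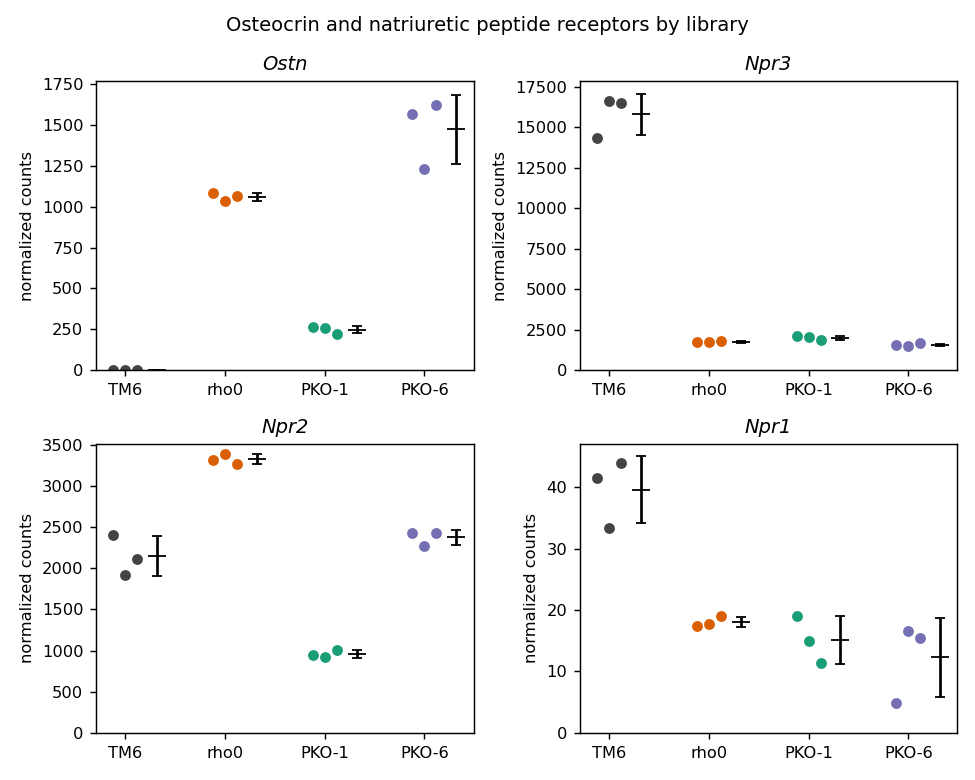
Normalized counts (y axis, from 0) of Ostn, Npr3, Npr2 and Npr1 in each of the 12 libraries, by line (x axis), where each point is a library and the bar at its right is the mean ± SD of 3 libraries. Ostn is at 0 in TM6 and highest in PKO-6, Npr3 is highest in TM6, and Npr2 is lowest in PKO-1.

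*Npr3*, the clearance receptor that osteocrin binds, was high in TM6 and fell in all 3 derived lines. TM6 libraries had 14352, 16588 and 16488 normalized counts (15809 ± 1263). The rho0 libraries had 1713, 1726 and 1787 (1742 ± 39.4). PKO-1 had 2127, 2025 and 1854 (2002 ± 138), and PKO-6 had 1547, 1512 and 1653 (1571 ± 73.5). Every TM6 library was above every library of the derived lines, which lay close to each other. *Npr3* was 9.08-fold lower in rho0 (log2 fold change -3.18, SE 0.0718, edgeR adjusted p = 4.48e-13), 7.90-fold lower in PKO-1 (-2.98, SE 0.0711, edgeR adjusted p = 1.04e-12) and 10.1-fold lower in PKO-6 (-3.33, SE 0.0722, edgeR adjusted p = 2.11e-13). These 3 comparisons share the TM6 libraries and are not independent of each other. Among the derived lines *Npr3* was not called. PKO-1 against PKO-6 gave a log2 fold change of 0.35 (interval 0.21 to 0.48, edgeR adjusted p = 5.67e-04), under the fold threshold. PKO-1 against rho0 gave 0.20 (0.07 to 0.34, edgeR adjusted p = 0.02), and PKO-6 against rho0 gave -0.15 (-0.28 to -0.01, edgeR adjusted p = 0.0823).

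*Npr2*, the cyclase receptor for C-type natriuretic peptide, did not move in 1 direction across the derived lines. TM6 had 2398, 1915 and 2115 normalized counts (2143 ± 243), and rho0 had 3316, 3386 and 3264 (3322 ± 61.4). PKO-1 had 951, 917 and 1009 (959 ± 46.7), and PKO-6 had 2425, 2270 and 2423 (2372 ± 89.0). The rho0 libraries were above and the PKO-1 libraries below all others, while TM6 and PKO-6 overlapped. *Npr2* (chr4:43631935-43651240, plus strand, 22 exons) rose in rho0 by a log2 fold change of 0.63 (SE 0.0706, edgeR adjusted p = 2.38e-06) and was 2.23-fold lower in PKO-1 than in TM6 (-1.16, SE 0.0737, edgeR adjusted p = 1.06e-08). PKO-6 differed from TM6 by 0.15 (0.01 to 0.29, edgeR adjusted p = 0.0793). PKO-1 was 3.46-fold below rho0 (log2 fold change -1.79, SE 0.0742, edgeR adjusted p = 2.14e-10) and 2.47-fold below PKO-6 (-1.31, SE 0.0737, edgeR adjusted p = 3.73e-09). PKO-6 against rho0 gave -0.49 (-0.62 to -0.35, edgeR adjusted p = 6.30e-05) and was not called, but it was called at -0.50 with *Rn45s* left out of the scaling, and also without TM6 replicate 1, rho0 replicate 1, rho0 replicate 3 or PKO-6 replicate 1 (-0.51 to -0.47 over all libraries left out in turn). With both clones pooled, neither rho0 (0.63, edgeR adjusted p = 0.191) nor PKO (-0.36, edgeR adjusted p = 0.392) was called against TM6.

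*Npr1*, the cyclase receptor for atrial and B-type peptides, had the fewest counts of the 3 receptors in every line (chr3:90450592-90465866, minus strand, 22 exons). Its expected counts were 48, 35 and 44 in TM6 and 18, 16 and 17 in rho0. They were 16, 14 and 11 in PKO-1, and 6, 16 and 16 in PKO-6. TM6 libraries were above all others, and the derived lines overlapped in raw counts. Scaled for library size, the rho0 libraries (17.4 to 18.98 normalized counts) lay above those of PKO-6 (4.91 to 16.6), and PKO-1 (11.4 to 19.05) overlapped both. Normalized counts were 39.6 ± 5.47 in TM6, 18.1 ± 0.822 in rho0, 15.1 ± 3.84 in PKO-1 and 12.3 ± 6.45 in PKO-6. Against TM6 the log2 fold change was -1.13 in rho0 (SE 0.324, edgeR adjusted p = 0.00647), -1.39 in PKO-1 (SE 0.334, edgeR adjusted p = 0.00230) and -1.71 in PKO-6 (SE 0.338, edgeR adjusted p = 4.39e-04), all called. The call in rho0 was lost with DESeq2 (adjusted p = 0.0105), and when TM6 replicate 1 or 3 or any rho0 library was left out, with log2 fold changes of -1.19 to -1.06 in those fits. The call in PKO-1 was lost without TM6 replicate 3, PKO-1 replicate 2 or PKO-1 replicate 3 (-1.39 to -1.22). Among the derived lines no *Npr1* difference was called, with log2 fold changes of -0.26 (PKO-1 against rho0, -0.99 to 0.46), -0.58 (PKO-6 against rho0, -1.32 to 0.15) and 0.32 (PKO-1 against PKO-6, -0.44 to 1.08).

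**Figure D2:**
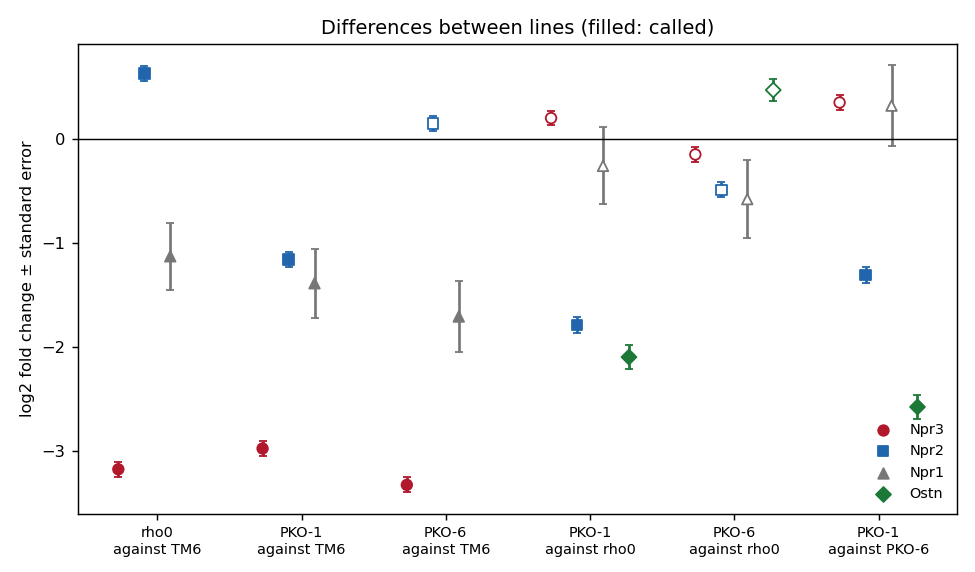
Log2 fold change ± standard error (y axis) of Npr3, Npr2, Npr1 and Ostn in 6 comparisons between lines (x axis), with filled symbols for called genes; Ostn against TM6 is not tested and is absent. Npr3 is near -3 in all 3 derived lines against TM6, and Ostn and Npr2 are lower in PKO-1 than in rho0 and PKO-6.

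The natriuretic peptides were low in every line, and both peptides of the set were at or near 0. *Nppb* (chr4:147985788-147987205, plus strand) had at most 3 counts in a library and 9 over all 12. *Nppc* (chr1:86666293-86670573, minus strand) had 0 counts in every TM6 and rho0 library, 1 count in 1 PKO-1 library and 1 count in each of 2 PKO-6 libraries. *Nppa*, the atrial peptide gene, which is no member of the set, had 0 to 15 counts per library. Its means of 0.37, 0.503, 0.12 and 0.347 TPM in TM6, rho0, PKO-1 and PKO-6 were above those of *Npr1* (0.31, 0.137, 0.113 and 0.0967 TPM). In PKO-1 the *Nppa* libraries ranged from 0 to 0.22 TPM. It passed the filter and was not called against TM6 in rho0 (log2 fold change 0.39), PKO-1 (-1.49) or PKO-6 (-0.06). *Nppb* and *Nppc* were removed by the filter on low counts, and without it none of their comparisons was called (edgeR adjusted p 0.259 to 1). At this depth no difference in *Nppb* or *Nppc* between lines was detectable.

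In all, 4 of the 6 genes passed the filter on low counts, and *Ostn* passed through the derived lines alone. Of the 3 receptors, 1 rose (*Npr2*) and 2 fell (*Npr1*, *Npr3*) in rho0 against TM6, where 20.7% of all tested genes were called higher and 21.4% lower. None rose and 3 fell in PKO-1, where 16.4% of all genes were called higher and 17.9% lower. None rose and 2 fell in PKO-6 (*Npr1*, *Npr3*), where the shares were 21.9% and 19.4%. Of the 4 genes tested among the derived lines, 2 were called in PKO-1 against rho0 (*Ostn* and *Npr2*), where 32.7% of all genes were called in either direction. The same pair was called in PKO-1 against PKO-6, beside 29.1% of all genes. None was called in PKO-6 against rho0, beside 21.5% of all genes. The adjusted p of *Ostn* and *Npr2* in that last comparison passed its threshold, and their fold size did not.

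Levels of different genes were compared per transcript length, in the deposited TPM. This unit divides counts by transcript length and then by the sum of these quotients over all transcripts of the library. *Npr3* was at 71.1 ± 5.29 TPM in TM6, and 7.76 ± 0.649, 8.61 ± 0.404 and 6.84 ± 0.758 TPM in rho0, PKO-1 and PKO-6. *Npr2* was at 18.7 ± 2.26, 28.6 ± 2.24, 8.0 ± 0.701 and 19.96 ± 1.88 TPM in TM6, rho0, PKO-1 and PKO-6. *Ostn* was at 29.2 ± 1.69, 6.60 ± 0.441 and 39.8 ± 8.02 TPM in rho0, PKO-1 and PKO-6. The ratio of *Npr2* to *Ostn* was 0.978 ± 0.0346 in rho0, 1.22 ± 0.172 in PKO-1 and 0.509 ± 0.0616 in PKO-6, so that *Ostn* was close to *Npr2* in rho0, below it in all PKO-1 libraries and above it in all PKO-6 libraries. With counts divided by the longest transcript the rho0 ratio was 1.09. *Npr1* was at 0.34 TPM or less in every library.

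The order of the clearance receptor and the cyclase receptor NPR2 was not the same in every line. The ratio of *Npr3* to *Npr2* in TPM was 3.86 ± 0.702 in TM6, 0.271 ± 0.0103 in rho0, 1.08 ± 0.114 in PKO-1 and 0.342 ± 0.0119 in PKO-6. *Npr3* was above *Npr2* in all TM6 libraries and below it in all rho0 and PKO-6 libraries, while the PKO-1 libraries lay around 1 (0.951 to 1.15). The ratio of *Npr3* to *Ostn* was 0.265 ± 0.00718 in rho0, 1.31 ± 0.0368 in PKO-1 and 0.175 ± 0.0226 in PKO-6. PKO-1 was the derived line in which *Npr3* exceeded *Ostn*. With counts divided by the longest transcript instead of the deposited TPM, these 3 ratios were 0.301, 1.48 and 0.198. The levels are shares of the transcripts sequenced after ribosomal RNA depletion, and in such bulk samples fewer expressing cells and less RNA per cell cannot be told apart.

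**Figure D3:**
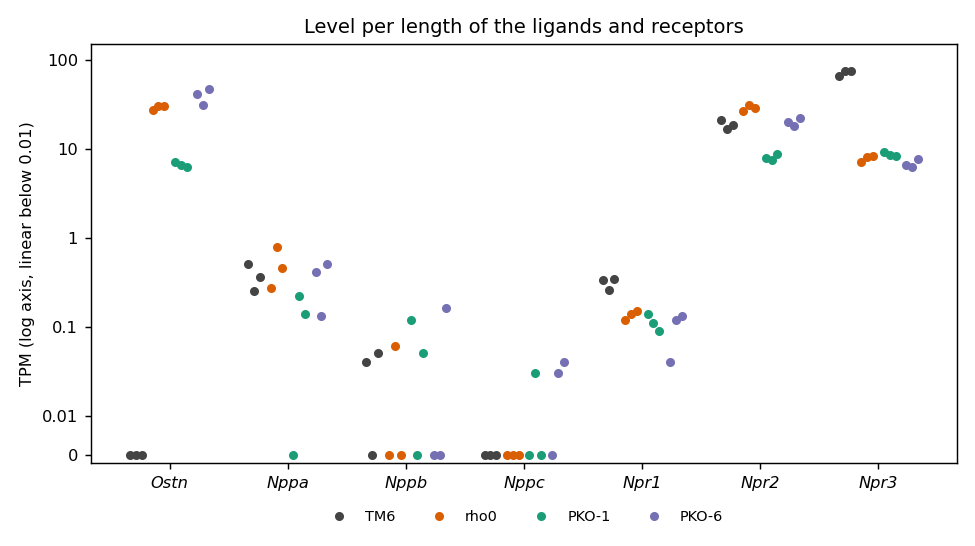
TPM (y axis, log scale, linear below 0.01) of osteocrin, the natriuretic peptides and their receptors (x axis), with a point for each of 12 libraries coloured by line. Ostn is at 0 in TM6 and at 6.18 to 47.2 TPM in the derived lines, the peptides Nppa, Nppb and Nppc are below 1 TPM throughout, and Npr3 drops from TM6 to the derived lines.

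In RSEM's estimates of how reads divide between them, each of the 3 *Npr3* transcripts had fewer expected counts in every library of the derived lines than in any TM6 library. NM_008728.2 held 51.8 ± 2.21% of the *Npr3* counts in TM6, 57.7 ± 3.50% in rho0, 49.1 ± 5.93% in PKO-1 and 50.8 ± 5.49% in PKO-6. NM_001039181.1, without the 3 bases shown above, held 46.1 ± 2.50%, 35.9 ± 3.87%, 44.0 ± 7.69% and 43.0 ± 3.17%. The rho0 shares of the latter lay below the TM6 shares in every library, and those of both clones overlapped TM6. NM_001286395.1, which starts from its own first exon, held 2.16 ± 0.544% in TM6, 6.46 ± 0.383% in rho0, 6.88 ± 2.21% in PKO-1 and 6.20 ± 3.96% in PKO-6. Its share was above every TM6 library in rho0 and PKO-1, while PKO-6 replicate 1 (2.52%) lay within the TM6 range of 1.85% to 2.79%. *Gm5144* (chr15:11906525-11907390, plus strand) overlaps the start of *Npr3* on the opposite strand, and fell from 37.4 ± 8.56 normalized counts in TM6 to 10.7 ± 1.81 in rho0, 6.03 ± 3.48 in PKO-1 and 7.15 ± 6.42 in PKO-6 (log2 fold changes -1.80, -2.58 and -2.37, edgeR adjusted p = 0.00603, 0.00117 and 0.00123). The libraries were strand-specific, but a strand setting for counting is not given in the sources used here, so reads of the minor *Npr3* transcript's first exon and of *Gm5144* may not be separated.

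**Figure D4:**
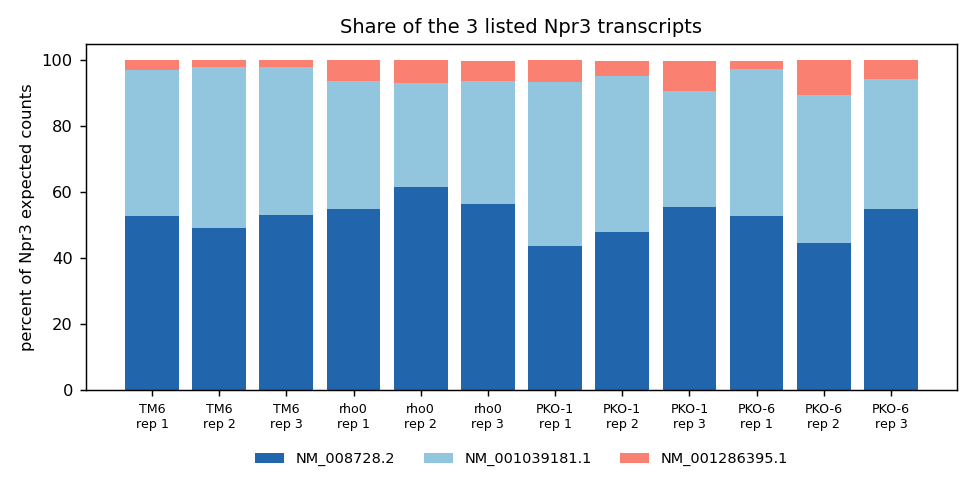
Share of Npr3 expected counts (y axis, percent) on each of the 3 listed transcripts in the 12 libraries (x axis), as stacked bars. The 2 transcripts that differ by 3 bases hold most counts in every library, and NM_001286395.1 holds 1.85% to 2.79% in TM6 and 2.52% to 10.4% in the derived lines.

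Genes for processing and clearance of natriuretic peptides included *Mme*, which fell in all 3 derived lines. Of 8 listed genes 5 were tested, and 2 rose and 2 fell in rho0, none rose and 2 fell in PKO-1, and none rose and 2 fell in PKO-6, with median log2 fold changes of -0.09, -0.28 and -0.42 beside 0.02, 0.00 and 0.01 over all genes. Of all tested genes, 20.7% were called higher and 21.4% lower in rho0, 16.4% and 17.9% in PKO-1, and 21.9% and 19.4% in PKO-6. *Mme* encodes neprilysin, a membrane peptidase that degrades natriuretic peptides, and its level fell from 3432 normalized counts in TM6 to 200 in rho0, 1286 in PKO-1 and 239 in PKO-6 (log2 fold changes -4.10, -1.42 and -3.85, all called). *Pcsk6*, a proprotein convertase that activates the peptide-processing protease corin, had log2 fold changes of 0.53, -1.69 and -5.34, all called, the first not without TM6 replicate 3 (0.50) or rho0 replicate 1 (0.45). *Furin*, another proprotein convertase, fell in rho0 (-0.69) and was not called in PKO-1 (-0.28) or PKO-6 (-0.42). *Ece1*, an endothelin-converting peptidase, had 0.60 in rho0, called, and -0.01 and 0.26 in the clones.

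Of 13 genes for other routes of cGMP synthesis only *Gucy1a2*, a subunit of the soluble guanylyl cyclase, was tested. It was called in PKO-6 against TM6 (log2 fold change 2.05, from 661 to 2737 normalized counts) and not in rho0 (0.36) or PKO-1 (-0.44). The other listed subunits *Gucy1b3* (1.30, 0, 0 and 0 normalized counts in TM6, rho0, PKO-1 and PKO-6) and *Gucy1b2* (3.35, 0.369, 0.397 and 1.44) were near 0 in every line. Of 12 cGMP effectors 8 were tested, and 5 rose and 2 fell in rho0, 5 rose and 1 fell in PKO-1, and 5 rose and 1 fell in PKO-6 (median log2 fold changes 0.78, 0.93 and 1.30), beside 20.7% higher and 21.4% lower, 16.4% and 17.9%, and 21.9% and 19.4% of all tested genes. With DESeq2, or with *Rn45s* left out of the scaling, 4 rose in PKO-1, without *Cngb1*, and with DESeq2 none fell in PKO-6, where *Mrvi1* was otherwise called. *Prkg2*, the membrane-bound cGMP-dependent kinase that acts below NPR2 in the growth plate, rose in all 3 (0.84, 1.58 and 1.78). *Prkg1*, the soluble form, fell in rho0 (-1.19) and rose in PKO-1 (1.18) and PKO-6 (1.96). *Rgs2*, a regulator of G protein signaling (1.61, 2.59 and 2.66), and *Vasp*, an actin regulator (0.73, 0.67 and 0.82), both kinase substrates, rose in all 3.

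Of 16 genes for cGMP hydrolysis and export 8 were tested, and 3 rose and none fell in rho0, 2 rose and 1 fell in PKO-1, and 6 rose and 1 fell in PKO-6 (median log2 fold changes 0.39, 0.25 and 1.75), beside the shares of all genes given with the effectors. *Pde5a*, the cGMP-specific phosphodiesterase, rose from 89.0 normalized counts in TM6 to 709 in rho0, 298 in PKO-1 and 533 in PKO-6 (2.99, 1.74 and 2.58, all called). *Pde3b*, a phosphodiesterase inhibited by cGMP, rose in all 3 (0.64, 3.54 and 2.45). Of the exporters, *Abcc4* had 0.87 in rho0 and 0.70 in PKO-6, both called, and 0.36 in PKO-1, and *Abcc5* had -0.51 in PKO-1 and -1.19 in PKO-6, both called, and 0.12 in rho0. The *Abcc5* call in PKO-1 was lost without TM6 replicate 3, PKO-1 replicate 1 or PKO-1 replicate 2 (-0.49 to -0.46).

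Of 13 genes of growth plate signaling beside the natriuretic peptides 10 were tested, and 1 rose and 6 fell in rho0, 1 rose and 4 fell in PKO-1, and none rose and 4 fell in PKO-6 (median log2 fold changes -0.71, -0.57 and -0.44). Beside these, 20.7%, 16.4% and 21.9% of all tested genes were called higher and 21.4%, 17.9% and 19.4% lower. *Fgfr2*, a fibroblast growth factor receptor, fell in all 3 (-2.03, -4.14 and -1.75). *Fgfr1* had -0.72, -0.46 and -0.85, called in rho0 and PKO-6, and the kinase *Map2k2* had -0.71, -0.70 and -0.42, called in rho0 and PKO-1. The kinase *Map2k1* rose in rho0 (0.59) and was not called in either clone (-0.12 in PKO-1 and 0.45 in PKO-6), and *Shox2*, a limb transcription factor, rose in PKO-1 (1.03). The *Map2k1* call was lost without rho0 replicate 1 (0.48). No list was tested as a group.

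**Figure D5:**
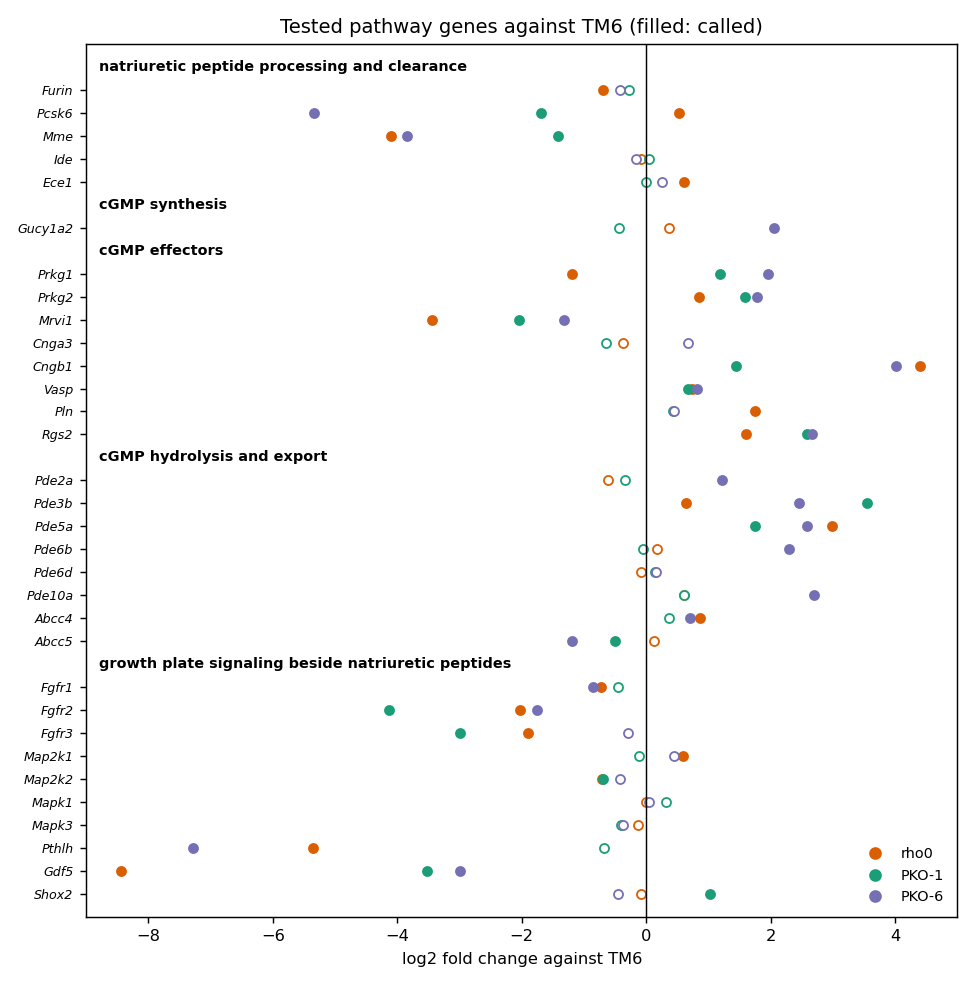
Log2 fold change against TM6 (x axis) of each tested gene (y axis) in 5 pathway lists, coloured by line, with filled points for called genes. Mme and Fgfr2 lie left of 0 and Prkg2, Rgs2, Vasp, Pde5a and Pde3b right of 0 in all 3 derived lines.

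Summed markers of bone-forming cells and of skeletal muscle did not share the order of *Ostn* across the lines. The summed TPM of 12 osteoblast and osteocyte markers was 207 to 224 in TM6, 138 to 145 in rho0, 1334 to 1635 in PKO-1 and 516 to 652 in PKO-6, so that the line with the least *Ostn* of the derived lines had the most marker RNA. Of these markers 5 were tested, and *Ibsp*, *Sost* and *Mepe* were at 0 in every library. *Spp1* (7778, 5059, 62256 and 23327 normalized counts in TM6, rho0, PKO-1 and PKO-6) made up 85.2% to 97.7% of the summed TPM of a line. The 16 skeletal muscle markers summed to 50.5 to 50.6, 48.6 to 56.4, 54.6 to 61.4 and 53.7 to 62.2 TPM, with *Myog*, *Myf5*, *Myf6* and *Myh8* at 0 in every library. This sum was carried by the broadly expressed *Mef2a* (16.5, 25.3, 26.9 and 23.4 TPM) and *Mef2d* (32.02, 23.8, 27.0 and 31.1 TPM), while *Des* had 9.82, 12.8, 50.0 and 43.5 normalized counts and *Acta1* 16.5, 1.06, 19.2 and 0.669. The 11 chondrocyte markers summed to 14.2 to 15.2 TPM in TM6, 2.42 to 3.92 in rho0, 4.96 to 5.88 in PKO-1 and 6.18 to 7.48 in PKO-6, with *Col9a1* at 0 in every library. The 12 fibroblast markers summed to 6887 to 7082, 4053 to 4165, 7295 to 7459 and 3460 to 3814 TPM. In the same order of lines, the 9 cardiomyocyte markers summed to 7.48 to 8.36, 1.73 to 2.03, 9.62 to 10.5 and 24.2 to 29.9 TPM, with *Tnnt2* at 84.2% of the PKO-6 sum. The 7 endothelial markers summed to 0.28 to 0.56, 0.16 to 0.27, 0.62 to 0.67 and 1.43 to 1.65 TPM, and the 7 macrophage markers to 8.14 to 9.19, 5.60 to 7.88, 10.0 to 10.9 and 12.8 to 14.1 TPM. The 7 epithelial markers summed to 6.22 to 6.55, 10.2 to 11.7, 19.2 to 20.2 and 1.76 to 2.08 TPM. *Krt18* made up 93.9%, 98.1% and 99.2% of this sum in TM6, rho0 and PKO-1. In PKO-6 *Krt18* made up 9.83% and *Epcam* 70.5%. Against TM6, *Krt18* was called lower in PKO-6 (log2 fold change -4.88) and *Epcam* higher (4.29), so the lower sum there does not hold for each marker. Of these last lists, *Emcn* (endothelial), *Adgre1* (macrophage) and *Krt5* (epithelial) were at 0 in every library. The part of these markers in the levels of *Ostn* and the receptors was not tested.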

How the data were processed

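RNA-seq of 12 libraries was analysed, 3 for each of the 4 MEF lines. The authors depleted ribosomal RNA, made strand-specific libraries, and estimated expected counts with RSEM 1.2.25 and bowtie2 on RefSeq transcripts of mm10 (GRCm38). The deposited gene table holds these estimated counts, not normalized, and the deposited files of each library also give TPM per transcript, which were summed per gene. Expected counts were rounded, since 12.5% of values had decimals. *Rn45s* held 12.2% to 19.6% of counts. In R 4.3.3 with edgeR 4.0.16, filterByExpr (minimum count 10) left 14026 genes, libraries were scaled by TMM, and 4 lines entered the quasi-likelihood test, with Benjamini-Hochberg adjustment over all genes. A call needed an adjusted p below 0.01 and a log2 fold change above 0.5 in size, the thresholds of the study, which pooled both clones. The SE is the log2 fold change over the square root of F, and 95% intervals are 1.96 SE wide on either side. The factor 1.96 is that of a normal distribution, so these intervals are narrower than the F test would give. They are not adjusted for the number of genes tested. Normalized counts are counts scaled to the mean effective library size. DESeq2 1.42.0 was an alternative. Depth sets the floor of 3 counts per library. Scripts were tested on simulated data. Same-numbered libraries of TM6 and PKO-6 deviated together (r 0.221 to 0.555), but not all pairs of any other comparison did, and no source says that a number marks a shared culture. Sequences come from GENCODE M21 transcripts.

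Named are the 6 members, the 5 genes most similar in pattern to *Ostn* and to *Npr3*, the nearest 3 genes on either side of *Ostn*, *Npr2* and *Npr3*, *Pnpt1*, and of each pathway list up to 4 called genes per direction with the largest mean change and at least 100 normalized counts. Neighbouring genes without a count in any library were passed over. *Nppa*, *Gm5144*, *Cngb1*, *Mrvi1*, *Gucy1b3*, *Gucy1b2* and the markers singled out were chosen after their values were seen. 1 item of the lists is not reported here. The members and lists were chosen with earlier results of these data known.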

Additional observations from a re-analysis of the deposited data

Results flagged for a closer look

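*Ostn* and *Npr2* were flagged because their change from TM6 was not the same in all derived lines, by the test of that difference in edgeR's fit of 4 lines. In that fit the difference of 2 changes from TM6 equals the direct comparison of the 2 lines. For *Ostn* the change in PKO-1 was lower than that in rho0 by a log2 difference of -2.10 and lower than that in PKO-6 by -2.58, with every PKO-1 library below every library of the other derived lines. For *Npr2* the corresponding differences were -1.79 and -1.31, again in 3 of 3 PKO-1 libraries. Both differences include 1 between clones that carry the same labels.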

How the results depend on the processing

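Of 395 refitted values of the 21 comparisons of single members, 370 kept their direction and side of the threshold, and 10 comparisons did so in all refits, among them *Npr3* against TM6 in each line. Pooling both clones moved most: *Npr2* became 0.63 (rho0) and -0.36 (PKO) against TM6 and -0.99 against rho0 (edgeR adjusted p = 0.0356), none called, *Ostn* became -0.30 and *Npr3* 0.04 against rho0, and *Npr1* in rho0 -1.13 (edgeR adjusted p = 0.0304), while 3607 genes were called in PKO against TM6 and 1500 in PKO against rho0. Pooling widens the spread, with a biological coefficient of variation of 0.248 against 0.0837 in the fit of 4 lines. *Npr1* in rho0 was also not called with DESeq2 (-1.14). Leaving *Rn45s* out of the scaling brought *Npr2* in PKO-6 against rho0 to -0.50, called. Leaving out 1 library at a time gave ranges of -1.24 to -1.06 for *Npr1* in rho0 and -1.58 to -1.22 in PKO-1 against TM6, -0.09 to 0.59 in PKO-1 against PKO-6 (below 0 without PKO-6 replicate 1), -0.51 to -0.47 for *Npr2* in PKO-6 against rho0 (called without TM6 replicate 1, rho0 replicate 1, rho0 replicate 3 or PKO-6 replicate 1) and 0.40 to 0.57 for *Ostn* in PKO-6 against rho0. The cause of these moves was not tested.

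Over all comparisons the deviations of same-numbered libraries correlated at -0.572 to 0.555, and 5 of 12 libraries correlated best with their own number. Replicate 3 libraries correlated positively in every comparison (0.027 to 0.555), while rho0 replicate 2 was at -0.572 to -0.435 with replicate 2 of the other lines. Whether same-numbered libraries share more than a number cannot be told from these values. With the replicate number as a block, *Npr1* in rho0 against TM6 was -1.13 (edgeR adjusted p = 0.0132) and no longer called, and no other call of a member changed, PKO-6 against TM6 included (*Npr1* -1.72, *Npr2* 0.15, *Npr3* -3.33, and 5776 genes called in place of 5799). Of the 40 calls of named pathway genes, refitted as an addition made after seeing the data, 31 were kept in every refit and none turned direction. Outside the pooled fit, *Abcc5* in PKO-1 was lost without TM6 replicate 3, PKO-1 replicate 1 or PKO-1 replicate 2 (-0.49 to -0.46), *Pcsk6* in rho0 without TM6 replicate 3 (0.50) or rho0 replicate 1 (0.45), and *Map2k1* in rho0 without rho0 replicate 1 (0.48). Depth limits the ligands *Nppb* and *Nppc* and the receptor *Npr1*, whose totals over a line were at most 127 counts.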

Other observations

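The genes beside *Ostn* were compared with it. *Uts2b*, encoding the vasoactive peptide urotensin 2B, lies 2.11 kb beyond the end of *Ostn* on the opposite strand, and was at 0 counts in all 3 TM6 libraries, at 6, 13 and 8 in rho0, at 1, 1 and 7 in PKO-1 and at 11, 10 and 17 in PKO-6. It was too low to be tested. The next genes, *Ccdc50* (37.7 kb away; log2 fold changes 0.28, 0.19 and 0.11 in rho0, PKO-1 and PKO-6 against TM6) and, on the other side, *Il1rap* (582 kb; 0.06, 0.29 and 0.47) were not called in any line. *Gmnc* and *Gm20319* averaged 1.07 normalized counts or fewer in every line and were not tested. *Mb21d2*, 1470 kb away, had 0.89, 1.19 and -0.64, all called. Beside *Npr2*, *Hint2* was called in rho0 (0.89) and PKO-6 (0.84) and not in PKO-1 (-0.15), *Spag8* in rho0 (2.08, from 7.69 to 33.5 normalized counts), and *Gba2* in PKO-1 (-0.58). *Rgp1* was not called in any line. Beside *Npr3*, *Sub1* was called in rho0 (-0.91) and *Tars* in PKO-6 (0.59), while *Adamts12* and *Zfr* were not called in any line. *Msmp*, *Fam221b*, *Rxfp3* and *1700047G03Rik* were too low to be tested.

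The genes most similar to *Ostn* by Pearson's r of log2(CPM + 1) over the 12 libraries, among 11205 genes, were *Ahi1* (0.997), *Snhg1* (0.996), *Tbpl1* (0.995), *Sos2* (0.994) and *Mapk12* (0.993). *Ahi1*, a gene of the primary cilium, had 1017, 3684, 2279 and 4122 normalized counts in TM6, rho0, PKO-1 and PKO-6, the same order as *Ostn* with a far smaller range. Over the 9 libraries of the derived lines they were *Csf2ra* (0.998), *Tbpl1* (0.998), *Pag1* (0.997), *Cftr* (0.997) and *Ahi1* (0.996). *Pag1* had its highest mean in TM6 (2196), where *Ostn* was at 0. For *Npr3* they were *Arhgap36* (0.998), *Elovl6* (0.998), *Sqle* (0.996), *Lypd6* (0.996) and *Sfrp2* (0.996). *Elovl6*, a fatty acid elongase, had 10267, 2858, 3028 and 2494 normalized counts, and *Sqle*, an enzyme of cholesterol synthesis, had 14307, 3004, 3196 and 2766. These libraries come from 4 lines of 3, so r mostly reflects 4 line means, and 319 genes had an r above 0.95 with *Ostn* and 313 with *Npr3* over the 12 libraries. Over the 9 libraries r mostly reflects 3 line means, and 461 of 11202 genes had an r above 0.95 with *Ostn*.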
